A study of Homo sapiens with 6 samples.

Results

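The skipped exons of 10 genes for splicing cofactors rich in arginine and serine, RSRP1, PNISR, SRRM1, SRRM2, LUC7L, LUC7L2, LUC7L3, RBM39, CCNL1 and CCNL2, were described in MDA-LM2 cells after knockdown of 2 spliceosomal proteins. An exon was taken as a member when it lay on the same strand within 1 of these genes in the GENCODE 29 annotation, and a 318-nt RSRP1 exon that is not annotated as such was included. This gave 61 exons in 82 annotated events, of 40658 skipped exons in all. The genes were chosen from inclusion levels and reads of these same libraries, so their values are a description. The call rule given below is applied to them only to count them beside all exons, and a call on a member is not independent evidence.

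MDA-LM2 was derived from MDA-MB-231, a breast cancer line, by selection for metastasis to the lung, and its cells were transfected with small interfering RNAs (siRNAs) by lipofection, with RNA taken 48 h later. The groups were cells with control siRNA (siCtrl, 2 libraries), cells with siRNA against SNRPA1 (siSNRPA1, 3 libraries) and cells with siRNA against SNRPB (siSNRPB, 1 library). SNRPA1 belongs to U2, the small nuclear ribonucleoprotein (snRNP) that binds the branch point of introns, and SNRPB encodes a protein of the ring shared by most spliceosomal snRNPs. Each group is given by 1 set of inclusion levels, so its libraries form a pool, no value has a replicate or a standard deviation, and every comparison is between pools and not between conditions. The labels do not say whether the libraries came from separate cultures or which siRNA each siSNRPA1 library received.

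RS domains are stretches of repeated arginine and serine residues through which splicing factors bind each other and the pre-mRNA, and many of these proteins collect in nuclear speckles. Genes of such factors often hold a "poison" exon, a cassette whose inclusion brings a premature stop codon, so that the transcript can be degraded by nonsense-mediated decay. Inclusion and skipping of such exons are a known means by which RS factors set their own level and that of their relatives.

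Among the members' exons, 18 of 61 held the premature stop codon of a transcript annotated for nonsense-mediated decay, and they lay in 7 of the 10 genes. A further 13 lay wholly in annotated coding sequence, 3 were partly coding, 22 were annotated in other ways and 5 were not annotated. The sequences below are those of the exons on which the results turn, read from GENCODE transcripts on hg38 and written 5′ to 3′ on the gene's strand. The first pair are the whole coding cassettes of SRRM1 (chr1:24663183-24663224, plus strand) and PNISR (chr6:99403829-99403882, minus strand), whose lengths of 42 and 54 nt keep the reading frame.
SRRM1 42-nt exon: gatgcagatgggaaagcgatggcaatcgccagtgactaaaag
PNISR 54-nt exon: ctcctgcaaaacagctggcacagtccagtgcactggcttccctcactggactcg

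The next set are the first bases of cassettes in RBM39, LUC7L3 and CCNL1 up to the annotated premature stop codon, which is in capitals. They are shown because the stop makes these exons poison exons by annotation. The RBM39 stretches are on the minus strand at chr20:35740526-35740597, chr20:35739410-35739547, chr20:35734215-35734257 and chr20:35710380-35710420, in the order of the gene. The LUC7L3 stretch is at chr17:50749219-50749244 on the plus strand, and that of CCNL1 at chr3:157157053-157157083 on the minus strand. The stop codon is TAA or TAG in the first pair of RBM39 exons and TGA in the 4 other stretches.
RBM39 73-nt exon: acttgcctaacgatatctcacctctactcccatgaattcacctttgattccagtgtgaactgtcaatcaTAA
RBM39 155-nt exon: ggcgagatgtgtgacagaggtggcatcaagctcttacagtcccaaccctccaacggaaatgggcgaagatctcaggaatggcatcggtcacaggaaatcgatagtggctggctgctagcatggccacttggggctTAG
RBM39 72-nt exon: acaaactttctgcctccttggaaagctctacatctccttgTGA
RBM39 138-nt exon: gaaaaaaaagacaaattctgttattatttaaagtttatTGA
LUC7L3 126-nt exon: ggcagaagataagattattggacTGA
CCNL1 148-nt exon: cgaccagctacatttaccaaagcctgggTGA

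The last pair are 30-base windows over the ends of the 318-nt RSRP1 exon (chr1:25244181-25244498, minus strand), with exon bases in capitals and intron bases in lower case. The upstream window spans chr1:25244490-25244519 and the downstream window chr1:25244166-25244195.
RSRP1 upstream end: tgctctatttctgtcttatagAAATCATGA
RSRP1 downstream end: CTGCTTCACTTGCAGataagtttattataa

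The intron before the RSRP1 exon ends in AG, whereas the bases after the exon are AT and not the usual GT. An annotated RSRP1 exon ends 4 bases further downstream, where the next bases are GT, so the end of the exon as given in the event may not be the one used. In the frame of the transcript annotated for nonsense-mediated decay, the third codon of the exon is the stop codon TGA, which closes the upper window.

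The depth and identity of the pools bear on every value. The siCtrl, siSNRPA1 and siSNRPB pools held 5707839, 7831446 and 3396043 informative reads (those that could come from just the included or just the skipped form of an exon), of which 12966, 24329 and 11019 fell on the members' exons. Reads over SNRPA1, per 1000000 reads that fit an isoform, were at 15.9% of the siCtrl level in the siSNRPA1 pool, and those over SNRPB at 12.4% in the siSNRPB pool. SNRPA1 reads were at 236% of siCtrl in the siSNRPB pool. In siCtrl, CD44, AXL, EGFR and ANXA1, which mark the parent line, had 952, 122, 79.7 and 17.8 reads per 1000000, against 1.10 or fewer for ESR1, ESRP1, CDH1 and GRHL2 of luminal or epithelial cells, PTPRC of blood cells and ALB of liver.

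The inclusion level is the authors' estimate, from 0 for an exon that is always skipped to 1 for an exon that is always included, with an interval whose width is not stated. The share of inclusion reads among informative reads is given beside it with its 95% Wilson interval, which covers counting error only. The level can differ from the share, since its estimate also uses other reads of the event and the length of the exon. An exon was tested where each pool held at least 20 informative reads and both pools together at least 5 of each class. It is said to have fallen or risen where Fisher's exact test on these reads, two-sided and with Benjamini-Hochberg adjustment over all tested exons, passed an adjusted p of 0.05 and the level differed by at least 0.1 in the same direction.

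In the siSNRPA1 pool against siCtrl, cassette exons of RSRP1, PNISR and SRRM1 fell and no member exon rose, with 24 exons of 9 genes tested. Over all 6459 tested exons, 17.0% were called, 12.8% as falls and 4.18% as rises, against 12.5% of the members. The median difference in level was -0.03 over the members and -0.02 over all tested exons. By the read test alone, without the limit on the level, 12 of the 24 member exons had a lower share and 0 a higher share, against 22.0% and 9.83% of all tested exons. The share of inclusion reads was lower in 19 of the 24, or 79.2%, against 61.1% of all tested exons. Several member exons share reads, such as the 126- and 121-nt exons of LUC7L3 and the 155- and 73-nt exons of RBM39. The member counts are therefore not of independent exons.

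In the siSNRPB pool against siCtrl, the same 3 exons and 2 exons of RBM39 fell and no member exon rose, with 18 exons of 7 genes tested. Calls made up 21.3% of all 4244 tested exons, 16.7% as falls and 4.62% as rises, and 27.8% of the members. The median difference in level was -0.035 over the members and -0.01 over all. By the read test alone, 12 of the 18 had a lower share and 0 a higher share, against 28.8% and 9.17% of all. Shares were lower in 17 of the 18, or 94.4%, against 62.3% of all tested exons. Both comparisons share the siCtrl pool, and several member exons share reads here too. Since the genes were also chosen from these contrasts, nothing is read from the members' counts.

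Between the knockdown pools, 19 member exons were tested and 2 were called. The PNISR exon was lower in siSNRPA1 than in siSNRPB and the 138-nt RBM39 exon was higher. Over all 5082 tested exons 14.7% were called, 6.38% as lower and 8.28% as higher in siSNRPA1. In all, 25 of the 61 exons were tested in at least 1 comparison and 17 in all 3. Of the 36 tested in none, 21 had under 20 informative reads in siCtrl and 15 had too few reads of 1 class.

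**Figure D1:**
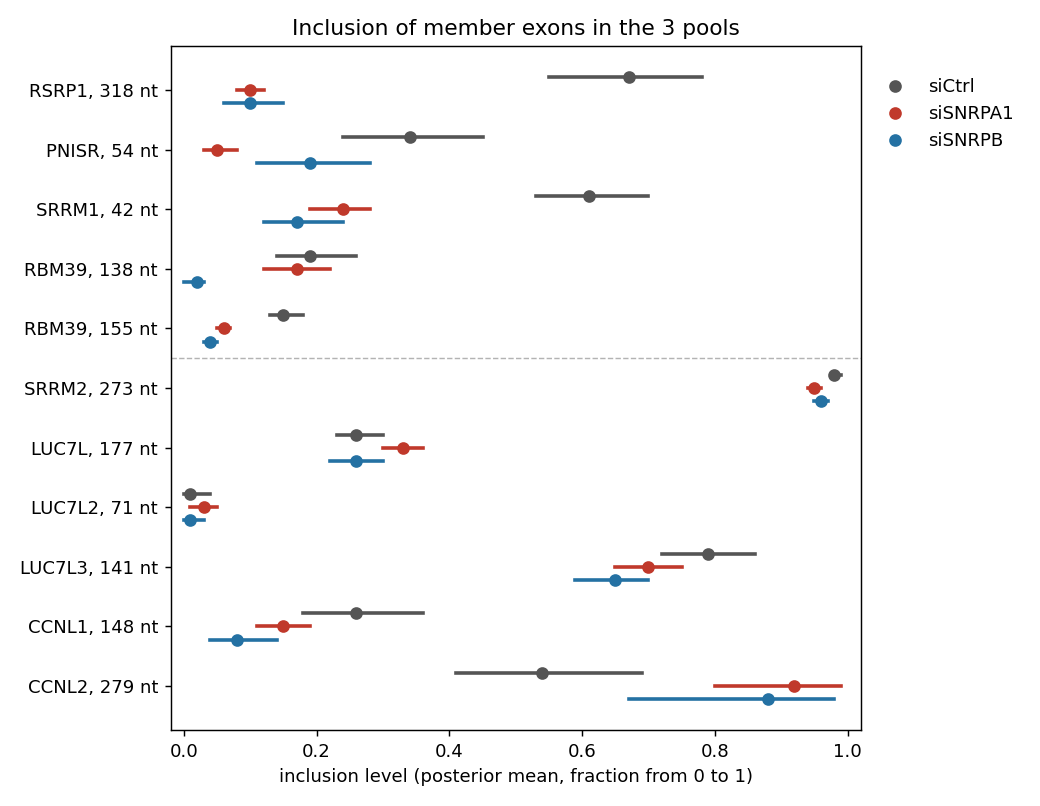
Inclusion level (x axis, fraction from 0 to 1) of the 5 called member exons, above the dashed line, and of the exon with the most informative reads in each other gene, below it, in the siCtrl, siSNRPA1 and siSNRPB pools; points are the authors' posterior means and lines their intervals. The RSRP1 exon stands at 0.67 in siCtrl and at 0.10 in both knockdown pools, while the 138-nt RBM39 exon is apart only in siSNRPB, at 0.02.

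RSRP1 encodes an arginine- and serine-rich protein. Its 318-nt exon showed the widest difference of level among the members' tested exons, at 0.67 (interval 0.55 to 0.78) in siCtrl, 0.10 (0.08 to 0.12) in siSNRPA1 and 0.10 (0.06 to 0.15) in siSNRPB. The inclusion and exclusion reads were 141 and 8 in siCtrl, 92 and 91 in siSNRPA1, and 21 and 18 in siSNRPB. The share of inclusion reads was thus 94.6% (89.8% to 97.2%), 50.3% (43.1% to 57.4%) and 53.8% (38.6% to 68.4%). The exon fell in both knockdown pools, whose intervals overlapped each other and not that of siCtrl.

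Per 1000000 informative reads of the pool, RSRP1 inclusion reads were 24.7, 11.8 and 6.18 in siCtrl, siSNRPA1 and siSNRPB, and exclusion reads 1.40, 11.6 and 5.30. Both classes of read therefore differed from siCtrl. The event of the 318-nt exon had 149, 183 and 39 informative reads and 82, 378 and 99 reads that fit both isoforms. At another RSRP1 event, the one with the most reads that fit an isoform, such reads were at 105% and 97.5% of siCtrl. The downstream exon of that event takes in the 547-nt intron after the 318-nt exon. Reads that keep this intron are counted there, so its values do not stand for the event of the 318-nt exon. Shorter forms of 45 and 44 nt share the upstream and the downstream end of the exon, and a stretch of 229 nt that starts with GT and ends with AG lies between them. Inclusion reads that fit these forms were few, at 2, 1 and 0 for the 45-nt form and 0, 3 and 0 for the 44-nt form. The whole stretch is covered by an annotated RSRP1 transcript with a retained intron, and reads of that transcript cannot be told apart here from inclusion of the exon. Reads that fit neither isoform made up 75.2%, 61.3% and 75.0% of the reads of the event.

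PNISR encodes a serine- and arginine-rich protein that binds pinin, a protein of nuclear speckles. Its 54-nt coding exon had a level of 0.34 (0.24 to 0.45) in siCtrl, 0.05 (0.03 to 0.08) in siSNRPA1 and 0.19 (0.11 to 0.28) in siSNRPB. Behind these stood 37 inclusion and 14 exclusion reads, then 12 and 73, then 19 and 23. The shares were 72.5% (59.1% to 82.9%), 14.1% (8.26% to 23.1%) and 45.2% (31.2% to 60.0%). The exon was called in all 3 comparisons, lowest in siSNRPA1, and the authors' intervals of siCtrl and siSNRPB overlapped. Its call in siSNRPB was lost with the Bayes factor of 2.02 in the authors' deposited table. In contrast, the 1087-nt PNISR exon was included in every informative read of the 3 pools, at 2002, 4660 and 1959 reads. The alternative 179- and 112-nt PNISR exons were not called in siSNRPA1, where each had 3 inclusion reads against 33 for skipping, beside 4 against 20 in siCtrl. They were not tested in siSNRPB, where the 179-nt exon had 8 and 8 reads and a level of 0.16, against 0.07 in siCtrl, and the 112-nt exon 0 and 8. In another event of the 112-nt exon, with a slightly shorter downstream exon, skipping reads were 4, 6 and 18 in siCtrl, siSNRPA1 and siSNRPB. Its levels there were 0.19, 0.05 and 0.03. The skipping reads of these exons thus depend on the event.

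SRRM1 encodes a splicing coactivator of the nuclear matrix that bridges RS factors bound to the pre-mRNA and the snRNPs. Its 42-nt coding exon had a level of 0.61 (0.53 to 0.70) in siCtrl, 0.24 (0.19 to 0.28) in siSNRPA1 and 0.17 (0.12 to 0.24) in siSNRPB. The inclusion and exclusion reads were 112 and 28, 98 and 153, and 33 and 73. The shares were 80.0% (72.6% to 85.8%), 39.0% (33.2% to 45.2%) and 31.1% (23.1% to 40.5%). The exon fell in both knockdown pools by 0.37 and 0.44 in level, and the knockdown pools overlapped each other. Exclusion reads per 1000000 informative reads were 4.91, 19.5 and 21.5. At another SRRM1 event, the one with the most reads that fit an isoform, such reads were at 159% and 149% of siCtrl. The SRRM1 exon with an annotated premature stop, of 130 nt, was not tested. It had 2 reads for inclusion and 8 for skipping in siCtrl, 21 and 30 in siSNRPA1 and 6 and 10 in siSNRPB. Its shares of 20%, 41.2% and 37.5% were higher in both knockdown pools, unlike those of most exons of its kind among the tested members, and its levels were 0.01, 0.04 and 0.03.

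SRRM2 encodes a large RS protein of the spliceosome and a main scaffold of nuclear speckles. Its deepest exon, of 273 nt, was nearly always included, at a level of 0.98 in siCtrl, 0.95 in siSNRPA1 and 0.96 in siSNRPB, with shares of 98.9% (98.5% to 99.2%), 97.2% (96.5% to 97.7%) and 97.7% (96.8% to 98.3%). These differences were under the limit of 0.1, though the read test was passed in both knockdown pools. In the other event of this exon, with a different upstream exon, the level was 0.99 in all 3 pools. The 95-nt SRRM2 exon with a premature stop was mostly skipped in all 3 pools, with shares of 6.19%, 6.43% and 3.50% and levels of 0.02, 0.02 and 0.01.

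The LUC7-like proteins are relatives of a yeast component of the U1 snRNP and take part in the choice of 5′ splice sites. No exon of LUC7L, LUC7L2 or LUC7L3 was called in any comparison. The deepest LUC7L exon, of 177 nt and coding, had levels of 0.26 (0.23 to 0.30), 0.33 (0.30 to 0.36) and 0.26 (0.22 to 0.30) in siCtrl, siSNRPA1 and siSNRPB. Its reads were 267, 597 and 227 for inclusion and 11, 8 and 14 for exclusion. The deepest LUC7L2 exon, of 71 nt, was almost always skipped, with 0 of 26, 5 of 80 and 0 of 45 informative reads for inclusion, and a count of 0 allows a share of up to 11.5% in siCtrl and 6.67% in siSNRPB. This LUC7L2 exon also lies in a readthrough gene of the same strand, so its reads cannot be given to LUC7L2 alone.

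LUC7L3 had the most exons of the family, 10, and the deepest, of 141 nt and coding, had 690, 1089 and 637 inclusion reads and no exclusion read, with levels of 0.79 (0.72 to 0.86), 0.70 (0.65 to 0.75) and 0.65 (0.59 to 0.70). In its other event, which starts from the 126-nt exon, the level was 0.99 in all 3 pools, so the difference between pools depends on the event. The cassette with a premature stop, in forms of 126 and 121 nt that share their reads, had 72 inclusion and 416 exclusion reads in siCtrl, 37 and 764 in siSNRPA1, and 15 and 455 in siSNRPB. Its share was 14.8% (11.9% to 18.2%), 4.62% (3.37% to 6.30%) and 3.19% (1.94% to 5.20%), and the level 0.05, 0.02 and 0.01. The share passed the read test in both comparisons, and the exon was not called because its level in siCtrl is itself below 0.1. A second LUC7L3 exon with a premature stop, of 193 nt, had shares of 19.2% (14.4% to 24.96%), 14.2% (11.0% to 18.2%) and 8.44% (5.0% to 13.9%).

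RBM39 encodes an RS protein related to U2AF2 that acts early in the recognition of 3′ splice sites and is the target of the sulfonamide degraders. It had the most exons of the 10 genes, 12, with 6 that hold a premature stop. The 155-nt exon had a level of 0.15 (0.13 to 0.18) in siCtrl, 0.06 (0.05 to 0.07) in siSNRPA1 and 0.04 (0.03 to 0.05) in siSNRPB. Its reads were 162 and 210, 164 and 678, and 55 and 291 for inclusion and exclusion, and its share 43.5% (38.6% to 48.6%), 19.5% (16.9% to 22.3%) and 15.9% (12.4% to 20.1%). It fell in siSNRPB with a difference of -0.11 and was not called in siSNRPA1, where the difference was -0.09 and the read test passed. The neighbouring 73-nt exon, with the same exclusion reads, had shares of 27.1%, 14.1% and 11.6%. In the event that joins the 155-nt exon to the 73-nt exon, its levels were 0.43 (0.37 to 0.50), 0.35 (0.29 to 0.41) and 0.34 (0.25 to 0.43), with overlapping intervals, so the size of the difference depends on the event.

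The 138-nt RBM39 exon stood apart in siSNRPB. It had 51 inclusion and 42 exclusion reads in siCtrl, 51 and 46 in siSNRPA1, and 3 and 61 in siSNRPB, which gave shares of 54.8% (44.7% to 64.6%), 52.6% (42.7% to 62.2%) and 4.69% (1.61% to 12.9%). The levels were 0.19 (0.14 to 0.26), 0.17 (0.12 to 0.22) and 0.02 (0.00 to 0.03). The exon fell in siSNRPB against siCtrl and was higher in siSNRPA1 than in siSNRPB, and the difference between siSNRPA1 and siCtrl was under 0.1. The siSNRPB values rest on 1 library.

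The other deep RBM39 cassettes with a premature stop were mostly skipped in all 3 pools. The 72-nt exon had 57, 55 and 12 inclusion reads and 548, 1658 and 694 exclusion reads, or shares of 9.42% (7.34% to 12.0%), 3.21% (2.48% to 4.16%) and 1.70% (0.975% to 2.95%). The 156-nt exon with a premature stop had shares of 24.6%, 25.7% and 23.2%, which overlapped in all 3 pools. The RBM39 event with the most reads that fit an isoform was that of an 896-nt exon, with the same exclusion reads as the 72-nt exon. Reads at this event were at 159% and 178% of siCtrl in the siSNRPA1 and siSNRPB pools, the highest among the members in siSNRPB.

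**Figure D2:**
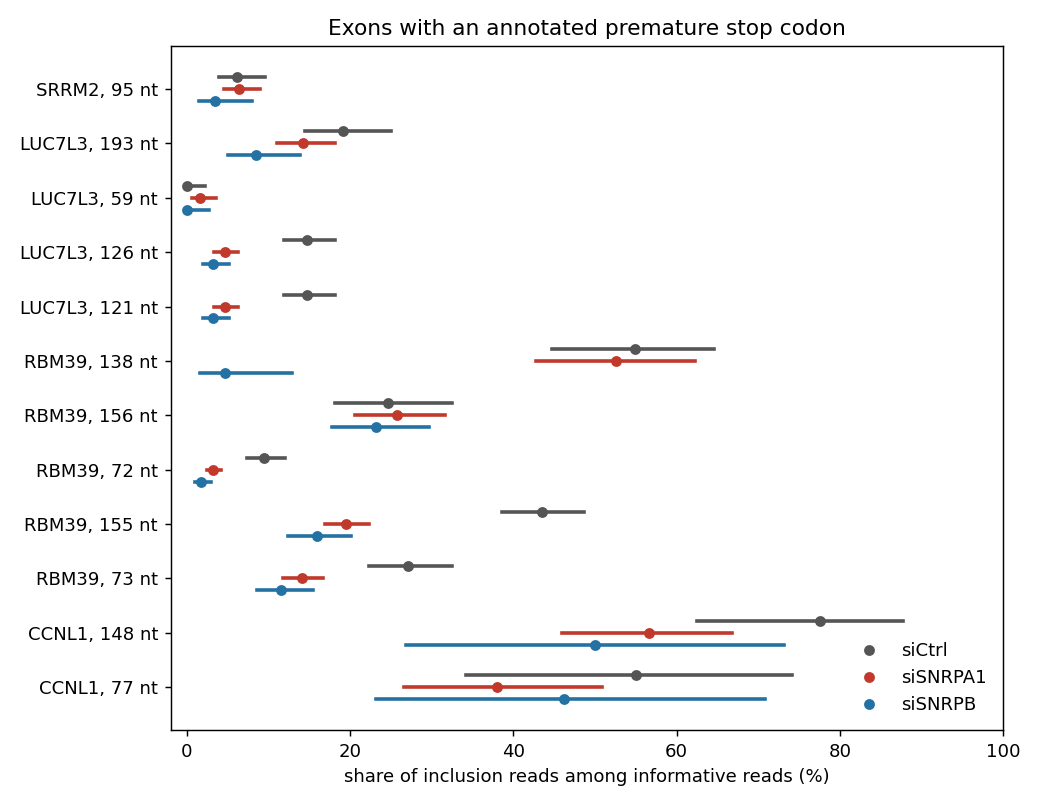
Share of inclusion reads among informative reads (x axis, %) of the 12 tested member exons with an annotated premature stop codon in the 3 pools; points are shares and lines their 95% Wilson intervals. The intervals of the 72-, 155- and 73-nt RBM39 exons and of the LUC7L3 cassette (126- and 121-nt forms, same reads) lie below that of siCtrl in both knockdown pools, and those of the 138-nt RBM39 and 193-nt LUC7L3 exons in siSNRPB.

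Cyclins L1 and L2, the products of CCNL1 and CCNL2, carry RS domains and pair with the CDK11 kinases, which phosphorylate splicing factors. The CCNL1 exon of 148 nt, with a premature stop, had a level of 0.26 (0.18 to 0.36) in siCtrl, 0.15 (0.11 to 0.19) in siSNRPA1 and 0.08 (0.04 to 0.14) in siSNRPB. Its reads were 31 and 9, 47 and 36, and 7 and 7, so its shares were 77.5% (62.5% to 87.7%), 56.6% (45.9% to 66.8%) and 50% (26.8% to 73.2%). The read test was not passed in siSNRPA1, and siSNRPB had too few reads for it. The 202-nt CCNL1 exon had 21, 18 and 0 inclusion reads, no exclusion read, and levels of 0.51 (0.27 to 0.76), 0.31 (0.17 to 0.52) and 0.05 (0.00 to 0.18).

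No CCNL2 exon could be tested. The deepest, of 279 nt, had 90, 247 and 44 inclusion reads and no exclusion read, while the authors' level was 0.54 (0.41 to 0.69) in siCtrl, 0.92 (0.80 to 0.99) in siSNRPA1 and 0.88 (0.67 to 0.98) in siSNRPB. No skipping read stands behind this difference in level. In the authors' deposited table its Bayes factor was 64.7 for siSNRPA1 and 6.29 for siSNRPB. In the other event of this CCNL2 exon, with a shorter upstream exon, the levels were 0.21 (0.15 to 0.27), 0.40 (0.32 to 0.48) and 0.65 (0.37 to 0.93), and the Bayes factors, also from the authors' deposited table, were 22.95 and 49.2. The level was thus lowest in siCtrl in both events, while its size and the order of the knockdown pools changed with the event.

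Over the 12 tested exons with a premature stop, the median share of inclusion reads was 21.9% in siCtrl, 14.1% in siSNRPA1 and 6.57% in siSNRPB. In siSNRPA1 against siCtrl, 0 of the 12 were called and 5 had a lower share by the read test. A fall needs a level at least 0.1 lower, and several of the 12 had a siCtrl level that was itself below 0.1. These were the 126-, 121- and 193-nt (0.05) and 59-nt (0.0) LUC7L3, 156-nt (0.05) and 72-nt (0.02) RBM39 and 95-nt SRRM2 (0.02) exons. None of them could be called as a fall in either knockdown pool, so nothing is read from the counts of calls. Of all 942 tested exons with an annotated premature stop, 9.55% were called, 57 as falls and 33 as rises, and 163 had a lower share by the read test. The median difference in share was -8.17 percentage points over the 12 and -0.293 over the 942. In siSNRPB 2 of 9 fell, both in RBM39, and 7 passed the read test with a lower share. Of all 596 such exons 11.4% were called, 47 as falls and 21 as rises, and 134 had a lower share by the read test. The median difference was -11.6 points over the 9 and -2.29 over the 596. Of the 12, 8 share exclusion reads with another of them, so they are not independent.

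Per 1000000 informative reads, exclusion reads of these exons were above siCtrl in 11 of 12 in each knockdown pool. Inclusion reads were below siCtrl in 6 of 12 in siSNRPA1 and in 10 of 12 in siSNRPB. The matching counts over all tested exons are not given here, and 8 of the 12 share exclusion reads, so nothing is read from these counts. For the 72-nt RBM39 exon, exclusion reads were 96.0, 212 and 204 and inclusion reads 9.99, 7.02 and 3.53 per 1000000 in siCtrl, siSNRPA1 and siSNRPB. For the LUC7L3 126-nt exon the values were 72.9, 97.6 and 134 for exclusion and 12.6, 4.72 and 4.42 for inclusion. A transcript with a premature stop can be degraded before it is sequenced, so a lower share and faster decay of the included form cannot be told apart.

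**Figure D3:**
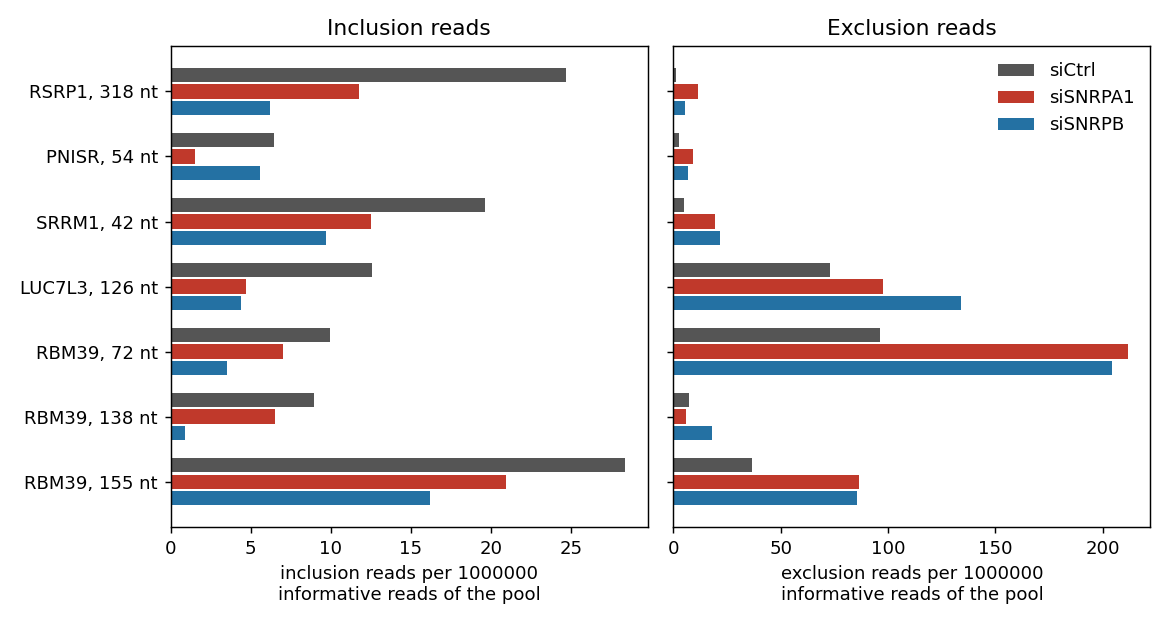
Inclusion reads (left) and exclusion reads (right) per 1000000 informative reads of the pool for 7 member exons; each bar is 1 pool, and the 2 panels have different scales. The 7 are the 5 called member exons and, in LUC7L3 and RBM39, the uncalled exon with a premature stop and the most informative reads. Inclusion reads are highest in siCtrl for all 7, and exclusion reads are lowest in siCtrl for all but the 138-nt RBM39 exon. The choice by calls partly sets this pattern. Of the 12 tested exons with a premature stop, inclusion reads were below siCtrl in 6 in siSNRPA1 and 10 in siSNRPB.

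Reads over the genes themselves also differed between the pools. At the deepest event of each gene, reads that fit an isoform, per 1000000 such reads of the pool, were above siCtrl for all 10 genes in siSNRPA1 and for 7 of 10 in siSNRPB. The range was 105% (RSRP1) to 161% (CCNL1) of siCtrl in siSNRPA1 and 50.3% (CCNL2) to 178% (RBM39) in siSNRPB. Over 6295 genes with at least 200 reads in at least 1 pool the median was 101% in siSNRPA1, with the middle 50% from 86.1% to 116%, and 98.1% in siSNRPB, from 76.9% to 120%. In each knockdown pool 7 of the 10 members lay above the 75th percentile. CCNL1 is counted among them in both. It had 164, 390 and 123 reads in siCtrl, siSNRPA1 and siSNRPB, and so reached 200 reads only in siSNRPA1, where its value was highest. Nothing is read from its place in the range. PNISR stood at 150% and 149%, LUC7L at 127% and 137%, LUC7L2 at 129% and 136%, LUC7L3 at 113% and 166%, and SRRM2 at 111% and 95.6%. CCNL1 and CCNL2 had the fewest reads, 7.85 and 9.57 per 1000000 in siCtrl. These reads lie over alternative exons and are not a measure of the whole transcript, and their part in the exon differences was not tested. The value of a gene depends on the event used. That of RSRP1 comes from an event whose downstream exon takes in the 547-nt intron after the 318-nt exon. That of CCNL2 in siSNRPB rests on 62 reads against 200 in siCtrl, at the event of the 279-nt exon. At the event of the 118-nt CCNL2 exon, siCtrl had 16 informative reads and 71 that fit both isoforms. The siSNRPB pool, with fewer reads in all, had 22 and 48 there.

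**Figure D4:**
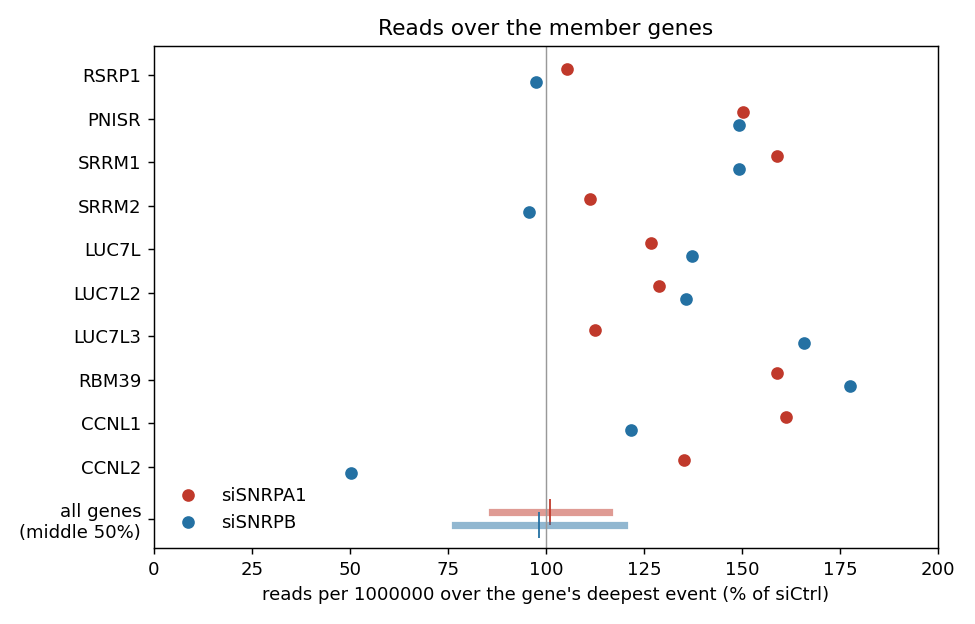
Reads over the deepest event of each member gene in the siSNRPA1 and siSNRPB pools as a percent of siCtrl (x axis, from reads per 1000000), with the median (tick) and the middle 50% (bar) of 6295 genes at the bottom. All 10 genes lie above 100% in siSNRPA1, and CCNL2 lies at 50.3% in siSNRPB, from 62 reads against 200 in siCtrl. CCNL1 reached 200 reads only in siSNRPA1. The value of a gene can differ at its other events.

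Other genes for RS-domain proteins were read from a list of 39, of which 35 had 121 skipped exons. In siSNRPA1 against siCtrl, 60 exons of 24 genes were tested, 2 fell and 1 rose, or 5.0% called, with a median difference in level of 0. The falls were in CDK11B, a cyclin L partner, from 0.84 to 0.60 with 379 and 353 inclusion reads and 0 and 6 exclusion reads, and in the kinase gene PRPF4B, from 0.28 to 0.06. The rise was in TRA2A, a splicing activator, from 0.13 to 0.25. The CDK11B call was lost with the share of inclusion reads in place of the level, and the TRA2A rise with the authors' Bayes factor. CDK11B has a near-identical copy, CDK11A, and the PRPF4B exon overlaps a gene on the other strand, so both are uncertain.

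In siSNRPB against siCtrl, 40 exons of 21 genes were tested, 3 fell and 1 rose, or 10.0% called, with a median difference of 0.005. The falls were in ZRANB2, from 0.54 to 0.28, in TRA2A, from 0.15 to 0.02, and in RBM23, a relative of RBM39, from 0.96 to 0.86. The rise was in SREK1, a regulator of RS proteins, from 0.25 to 0.46, in an exon of 124 nt that holds an annotated premature stop. This rise was lost with the authors' Bayes factor. The RBM23 fall was lost with the share of inclusion reads in place of the level, at 98.44% in siCtrl and 94.75% in siSNRPB. The ZRANB2 exon overlaps an antisense gene, whose reads may be counted with it.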

How the data were processed

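RNA of 6 libraries was sequenced from a stranded total RNA kit, per the labels' protocols. STAR 2.7 and hg38 are named in the submitters' processing notes; for MISO's version, the merging of libraries and the strand setting, the sources used here give nothing. The authors deposited 1 summary per group with the inclusion level, a fraction from 0 to 1 rounded to 2 decimals per the file headers, its interval, and read counts by class. Their 2 comparison tables hold a difference in level, a score from -1 to 1 that the authors deposited, and a deposited Bayes factor, a ratio. Each listed event had at least 20 reads in all.

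Of events with the same skipped exon, the deepest in informative reads was kept. Fisher's exact test was run in Python 3.11.15 with scipy 1.17.1 over all tested exons. The call rule was also run on simulated reads, which had no spread between libraries and a level set equal to the share. The simulation therefore does not check the rule where the level and the share differ, as they do here. Wilson intervals cover counting error only, since no molecular identifiers are described, and a count of 0 allows up to 3 reads. Genes and stop codons came from GENCODE 29, and each stop codon was found in the transcript sequence. Exons described singly were all called exons and, in each other gene, the deepest and up to 2 more; further exons were chosen after their values were seen. The members, lists and rules were chosen with earlier results of these data known. Of the members' exons, 3 overlap a gene on the other strand and 5 another gene on the same strand. The alternatives changed the read minimum, the limit on the difference, the measure, the evidence, the event and the depth. Unused columns of per-sample values numbered 0.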

Additional observations from a re-analysis of the deposited data

How the results depend on the processing

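With the share of inclusion reads in place of the level, member exons called were 8 in siSNRPA1 and 10 in siSNRPB against siCtrl, in place of 3 and 5, and 19.2% and 24.1% of all tested exons were called. The added calls include the LUC7L3 cassette (-0.101 and -0.116) and the 155-nt RBM39 exon in siSNRPA1 (-0.241), whose levels differ by under 0.1. With at least 50 informative reads the siSNRPB count was 3, without RSRP1 and PNISR, whose siSNRPB reads are fewer, and the count between the knockdowns was 1. With a difference of at least 0.2 these counts were 2 and 0, the RSRP1 and SRRM1 exons of siSNRPB being called. Each other alternative gave member counts within 1.5 times the main ones, and no call changed direction. The uncalled 156-nt RBM39 exon differed by -0.01 (siSNRPA1) and 0.01 (siSNRPB) in level against siCtrl, but by 1.09 and -1.44 percentage points in share. With at least 10 reads a LUC7L3 exon of 66 nt was added in siSNRPA1, for a count of 4. For the other RS genes, the counts of 3 and 4 became 1 and 2 with at least 50 reads, and 7 and 8 with the share. They were 2 in siSNRPB with a difference of at least 0.2, and 5 and 0 in siSNRPA1 with all events and with reads thinned to the smallest pool. The share lay outside the authors' interval of the level in 52 of 64 values, and another event of the same exon moved the level beyond that interval in 18 of 24. No paired analysis was possible because the libraries of each group are deposited as 1 pool, and leaving out a library was not possible for the same reason. Depth limits CCNL1, CCNL2 and LUC7L2 most, with few informative reads or none of 1 class.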

Other observations

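Among coding exons that could not be tested for lack of exclusion reads, the 78-nt RBM39 exon had an inclusion level of 0.63 (0.54 to 0.73) in siCtrl, 0.39 (0.35 to 0.44) in siSNRPA1 and 0.75 (0.66 to 0.85) in siSNRPB, with 192, 281 and 243 inclusion reads. Exclusion reads were 0, 0 and 2, so almost no skipping reads stand behind the difference in level. In the authors' deposited table its Bayes factor was 6582 for siSNRPA1 and 0.77 for siSNRPB. The partly coding 66-nt exon of LUC7L3, with under 20 informative reads in each pool, had 12, 5 and 9 inclusion reads and 0, 8 and 0 exclusion reads, with levels of 0.53, 0.13 and 0.39. Both exons were picked after their values were seen.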
